A study of Mus musculus with 21 samples.

Results

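The large cluster of replication-dependent histone genes on mouse chromosome 13 was examined in DNA recovered from the nucleosomes of sperm. Its members are all CpGs listed with a start in chr13:21800000-22150000 (the first block, mm9) or in chr13:23600000-23900000 (the second block). These intervals were set by position and not by a measured value. They held 5523 listed CpGs, 2964 in the first block and 2559 in the second, of 716657 on chromosome 13 and 15544856 in the library. The series covers histones, histone variants and histone marks in sperm and round spermatids of C57BL/6 mice in 21 samples, and its title ties nucleosome retention to CpG density and methylation. The sample used here is a single bisulfite library, and the rest were not used here. Motile sperm were selected by swim-up and mononucleosomal DNA was cut out with micrococcal nuclease (MNase), which digests the DNA between nucleosomes, per the labels' protocols. Bisulfite turns unmethylated cytosine into uracil and leaves methylated cytosine, so each read reports the methylation of the CpGs it covers. The labels give no age, genotype or treatment for these mice. The number of animals in the library is not given in the sources used here, and there was no replicate, so no test between samples was possible.

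Replication-dependent histone genes encode the core histones H2A, H2B, H3 and H4 and the linker histones H1 that package newly made DNA. They are short genes without introns, are present in many copies, and are transcribed mainly in S phase. Their promoters are compact, and an H2A gene often stands head to head with an H2B gene so that both share a promoter. The cluster also holds H1f6, the testis-specific linker histone H1t of meiotic germ cells, and a large share of the mouse tRNA genes lies among the histone genes. In sperm most histones have been replaced by protamines, and the nucleosomes that remain lie preferentially over CpG-rich, unmethylated DNA.

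For 5 promoters on which the results turn, the 150 bases before the start are given 5′ to 3′ from RefSeq (GRCm38.p6), with every CpG in capitals. H1f4 is shown as a promoter with many CpGs and no methylated read, H4c11 as the placed H4 promoter with the most reads, H1f6 as the testis-specific gene, Slc17a2 as the methylated neighbour, and H2bc23 as a promoter whose sequence is repeated in H4bc24.
H1f4: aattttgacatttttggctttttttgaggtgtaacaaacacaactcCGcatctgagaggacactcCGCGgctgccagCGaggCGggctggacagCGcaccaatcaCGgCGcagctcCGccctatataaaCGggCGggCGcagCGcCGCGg
H4c11: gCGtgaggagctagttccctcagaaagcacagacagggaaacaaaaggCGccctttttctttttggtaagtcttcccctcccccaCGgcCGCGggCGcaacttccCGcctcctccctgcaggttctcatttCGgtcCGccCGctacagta
H1f6: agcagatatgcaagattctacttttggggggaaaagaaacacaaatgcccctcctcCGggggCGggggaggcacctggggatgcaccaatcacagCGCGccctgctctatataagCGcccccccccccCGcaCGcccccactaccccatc
Slc17a2: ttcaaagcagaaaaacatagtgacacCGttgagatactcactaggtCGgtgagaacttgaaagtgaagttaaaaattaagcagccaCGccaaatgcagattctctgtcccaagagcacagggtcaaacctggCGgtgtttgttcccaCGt
H2bc23: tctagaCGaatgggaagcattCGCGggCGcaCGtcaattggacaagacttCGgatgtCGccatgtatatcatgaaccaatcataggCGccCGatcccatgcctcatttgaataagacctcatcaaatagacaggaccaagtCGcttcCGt
These segments hold 15 CpGs in H1f4, 10 in H4c11, 7 in H1f6, 5 in Slc17a2 and 11 in H2bc23. On the mm9 positions of the library, the windows of 300 bases that contain them lie at chr13:23714378-23714677 (minus strand) for H1f4, chr13:21826653-21826952 (plus) for H4c11, chr13:23787430-23787729 (plus) for H1f6 and chr13:23898612-23898911 (plus) for Slc17a2, while H2bc23 could not be placed.

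In RefSeq's table of promoters (250 bases before to 50 after a start) 47 histone genes fell in the order of genes covered by both blocks, and the promoters of 37 genes could be placed on the mm9 positions. No mm9 sequence was used. Each promoter was instead laid on the listed CpGs by the spacing of its own CpGs. A strict rule (at least 8 CpGs, at least 80% of them listed, no other place on the chromosome with as many) placed 17 histone genes and 2 neighbours. A wider rule, chosen after seeing the data (at least 5 CpGs, at least 60% listed, none off the pattern), placed 33 histone genes in 34 windows, since H2bc6 has 2 starts, and 4 neighbours. It allowed another place to match as many CpGs or more, if that place also held listed CpGs off the pattern. Several windows placed only by the wider rule had such a place, so they are less surely placed. H1f6 had 6 CpGs listed and up to 7 matched elsewhere, and H4c8 had 6 and 8. In both sets no listed CpG lay off the pattern of its window. Both rules ask that most CpGs of a window have a read, so promoters with few reads are under-represented among them. Of the 14 histone genes not placed, 3 had fewer than 5 CpGs.

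The cluster was far less methylated than the rest of its chromosome. Pooled over CpGs of up to 19 reads, 37.6% of 19521 CpG reads were methylated (95% Wilson interval 36.9 to 38.2), against 75.6% in the rest of chromosome 13. The level was 35.1% in the first block (34.2 to 36.0) and 40.7% in the second (39.7 to 41.8). All intervals here cover counting error only and are too narrow, since 1 read counts at every CpG it covers and PCR copies of a molecule cannot be told apart. Among the 201 CpGs with 10 or more reads, 160 were under 20% methylated and 20 were over 80%. The corresponding shares were 79.6% under 20% in the cluster and 44.4% in the rest of the chromosome. Depth was modest. The median CpG had 3 reads, and 23.7% of the CpGs of the cluster had 1 read.

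The level was also lower at equal CpG number. The local CpG number counts a CpG and all listed neighbours up to 100 bp away on either side. It averaged 5.63 in the cluster and 4.25 in the rest of chromosome 13. When the rest of the chromosome was weighted to the local CpG numbers of the cluster, its level was 65.5%, and the cluster minus this value was -27.9 percentage points (-28.6 to -27.2 by the interval of the cluster's level). The gap was widest at middling density. At 1 or 2 local CpGs the level was 77.0% in the cluster and 87.7% outside, at 3 to 5 it was 50.2% and 84.8%, and at 6 to 9 it was 16.7% and 69.1%. At 10 to 14 local CpGs the level was 3.41% against 26.0%, and at 15 or more it was 1.17% against 2.98%. DNA with 6 to 9 listed CpGs in 201 bp, which is mostly methylated elsewhere on the chromosome, was thus mostly unmethylated in the cluster. The level was 14.3% in the first block and 20.4% in the second. CpGs without a read are not listed, so the DNA itself can hold more CpGs than this number.

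**Figure D1:**
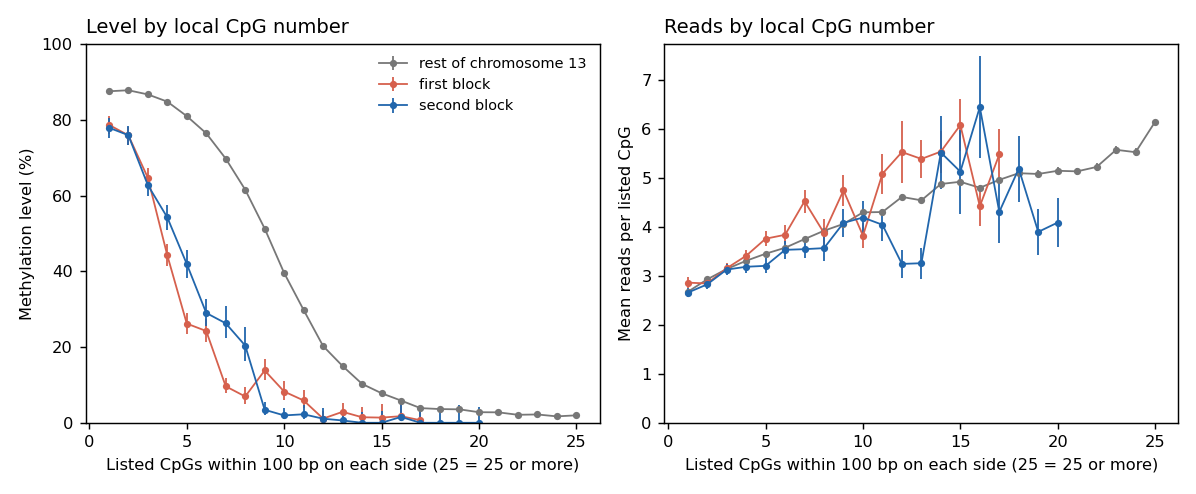
Methylation level in percent with Wilson intervals (left) and mean reads per listed CpG with standard errors over CpGs (right) against the local CpG number, for the first block, the second block and the rest of chromosome 13, at numbers with 20 or more CpGs. Both blocks lie below the rest of the chromosome in level up to about 15 local CpGs, whereas the reads of the 3 regions run close together at low numbers. At 12 and 13 local CpGs the first block lies above the rest of the chromosome in reads and the second block below it.

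How unusual such a gap is along the chromosome was described by the same measure in 381 windows of 300000 bp tiled over the rest of chromosome 13. Their differences from the chromosome at equal CpG number had a mean of 0.09 points (SD 4.11) and ran from -18.0 to 12.8 points. The first block lay at -29.7 points and the second at -25.5, so none of the 381 windows was as low as either block.

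Fixed bins of 500 bp showed the same contrast region by region. Of 522 bins with 10 or more reads in the cluster, 185 were low (under 20% methylated), 138 intermediate and 199 high (over 80%). The share of low bins was 35.4% (exact binomial interval 31.3 to 39.7), beside 3.42% of the bins in the rest of chromosome 13. At the listed CpG numbers of the cluster's bins, the rest of the chromosome would give 49.4 low bins, or 9.46%. Among bins of 6 to 9 listed CpGs, 51 of 159 were low (32.1%), beside 1.56% outside. Among bins of 10 to 14 CpGs, 57 of 81 were low (70.4%), beside 8.26%. Among bins of 15 or more, 62 of 68 were low (91.2%), beside 62% outside, and none was high, whereas 17.5% of such bins outside were high. Among bins of 3 to 5 CpGs, 14 of 193 were low (7.25%), beside 0.386%, and among bins of 1 or 2 CpGs 1 of 21 was low, beside 0.355%. Both blocks had nearly the same share of low bins, 35.6% in the first and 35.3% in the second.

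**Figure D2:**
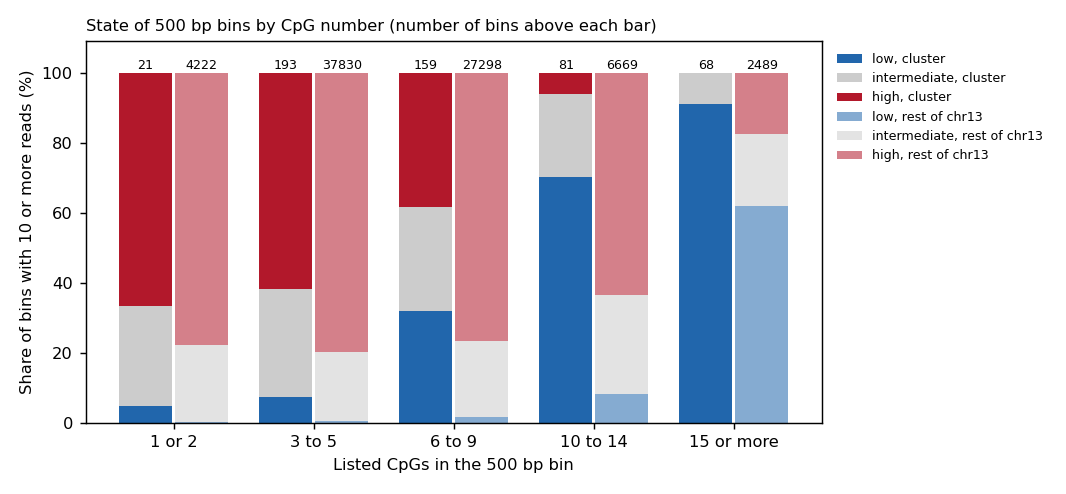
Share of 500 bp bins with 10 or more reads that were low (under 20%), intermediate or high (over 80%), in the cluster (full colours) and in the rest of chromosome 13 (pale), by the number of listed CpGs in the bin, with the number of bins above each bar. Low bins make up 32.1% of the bins of 6 to 9 CpGs in the cluster and 1.56% outside.

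Methylated DNA lay between the low bins. The 5 high bins with the most CpGs were chr13:23798500-23798999 (13 CpGs, 48 of 49 reads methylated), chr13:22045000-22045499 (12 CpGs, 27 of 32), chr13:23814500-23814999 (11 CpGs, 34 of 35), chr13:23881000-23881499 (10 CpGs, 24 of 26) and chr13:23898500-23898999 (10 CpGs, 29 of 35). The last of these holds the start of Slc17a2. Of the 6 intermediate bins with 15 or more CpGs, 4 lay in the first block between positions 22006000 and 22029499, and of those in the second block chr13:23787500-23787999 holds the start of H1f6.

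Low methylation came in short, closely spaced stretches. A stretch here joins at least 4 CpGs of 5 or more reads that are under 50% methylated when averaged with their neighbours (3 CpGs at a time) and no more than 500 bp apart. The cluster held 61 stretches, 38 in the first block and 23 in the second, or 9.38 per 100 kb, against 1.16 per 100 kb in the rest of chromosome 13. They covered 7.96% of the length of the cluster, against 1.04% outside. These contrasts per length were not adjusted for CpG number. A local number of 10 or more was that of 17.7% of the CpGs in the cluster and 7.04% outside. The median stretch was 602 bp long (range 34 to 3709), against 685 bp outside. Of the 61 stretches, 8 had 30 or more such CpGs, 7 in the first block and 1 in the second, against 367 of 1350 in the rest of the chromosome. Per 100 kb these were 1.23 in the cluster and 0.315 outside. The stretches of the cluster held 3.52 listed CpGs per 100 bp at the median, against 4.25 outside. Their pooled level was 5.57% (5.11 to 6.06), against 7.32%, and 10 of the 61 were above 20%, against 519 of 1350 outside.

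**Figure D3:**
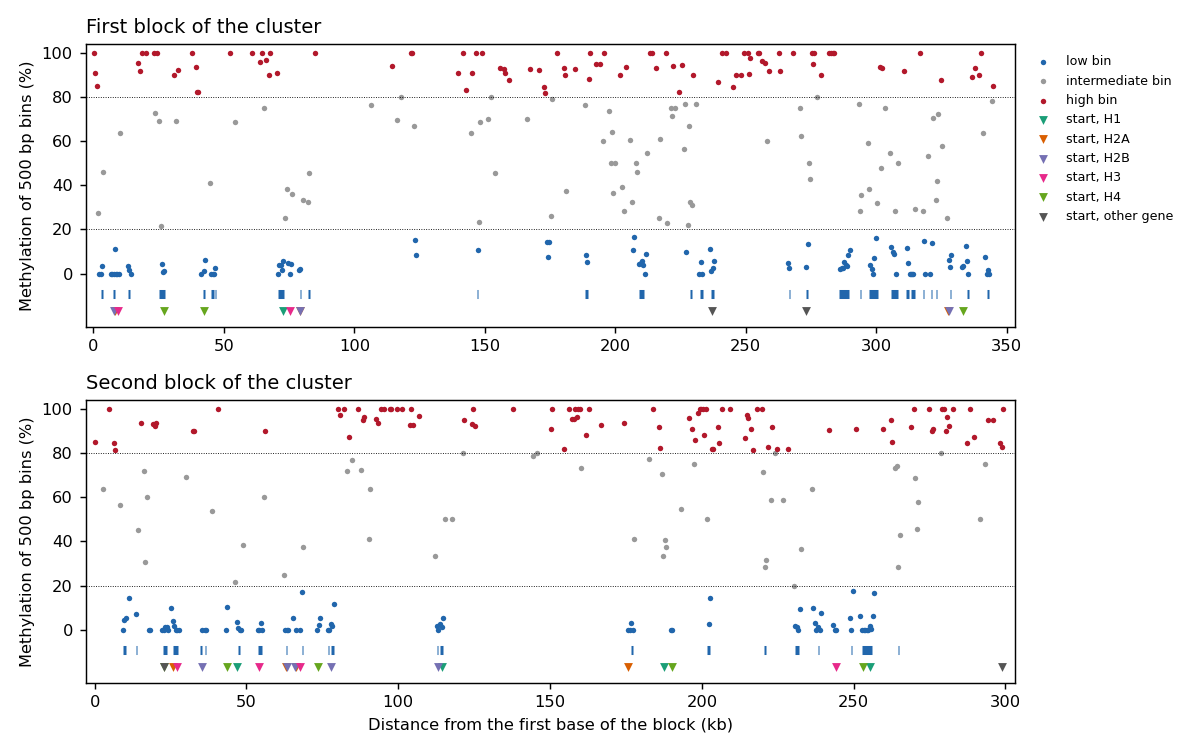
Methylation level in percent of 500 bp bins with 10 or more reads along the first block (top) and the second block (bottom), by distance in kb from the first base of each block. Blue bars under the points are low-methylated stretches, triangles are the starts of placed genes coloured by family, and dotted lines mark 20% and 80%. Many low bins lie near histone gene starts and in a dense group between about 285 and 330 kb of the first block, with high bins between them, and the bins at the starts of H1f6 and Slc17a2 are not low.

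The longest stretch of the first block was chr13:22085825-22089533 (3709 bp, 97 listed CpGs, 21 of 547 reads methylated). The stretch with the second most CpGs in the cluster was chr13:22097189-22100481 (128 CpGs, 55 of 830 reads methylated). Both lay between the starts of Pom121l2 and H2ac12. In the second block the longest was chr13:23852647-23856136, which spans 3490 bp and 134 CpGs and contains the starts of H4c1 and H1f1. Only 2 of its 692 reads were methylated, 0.289% (0.0793 to 1.05). The other stretches with the most CpGs in the second block were chr13:23830744-23832110 (60 CpGs, 6 of 283 reads), chr13:23653787-23655144 over the start of H3c6 (56 CpGs, 1 of 209), chr13:23713815-23714747 over the start of H1f4 (55 CpGs, 6 of 322) and chr13:23625747-23627339 over H3c8 (48 CpGs, 1 of 190). In the first block chr13:21870814-21873075 over H1f5 (83 CpGs, 16 of 444), chr13:22073059-22073990 just after the start of Pom121l2 (72 CpGs, 29 of 457) and chr13:22105774-22108165 (66 CpGs, 34 of 306) followed. The longest distances between neighbouring stretches were 64019 bp in the first block, from 21883065 to 21947085, and 61752 bp in the second, from 23714747 to 23776500. The first includes spans of 15283, 4927 and 14820 bp without a listed CpG, where no stretch could be called. The second begins after the stretch over H1f4 and contains the start of H2ac6 at 23775828, whose window had 0 of 10 reads methylated. A distance between stretches can thus hold low DNA.

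Part of the stretches lay at gene starts. Of the 61 stretches, 22 lay within 1000 bp of a placed histone gene start, with a pooled level of 2.48%, and the other 39 had 7.57%. The share of stretches near a placed start elsewhere on chromosome 13 was not counted. The 39 can include stretches at histone genes that were not placed, so the levels do not set all histone starts against other DNA. In the first block 29 of 38 stretches lay away from a placed histone gene. RefSeq lists 9 genes between Pom121l2 and H2ac12, of which 8 are tRNA genes and 1 is Prss16, a serine protease of the thymus. On the mm9 positions the 54462 bp between these starts held 11 stretches, 3 of them with 30 or more CpGs. Between H2bc22 and Zfp184 RefSeq lists 31 genes, 21 of them tRNA genes and 6 histone genes, and the 157606 bp between these starts held 10 stretches. The tRNA genes themselves were not placed, so no stretch is assigned to one.

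The methylation around the stretches was also lower than outside the cluster. Within 500 bp of a stretch the level was 25.1% in the cluster and 44.3% in the rest of the chromosome, and at 500 to 1000 bp it was 51.1% and 72.7%. More than 5000 bp from any stretch it was 81.0% (79.7 to 82.2) against 88.4%. Over all CpGs outside stretches the cluster's level was 64.9%, against 85.9% at equal local CpG number in the rest of chromosome 13. A stretch asks for a minimum of reads at its CpGs, so low DNA with few reads can count as outside. Of the 34 low histone windows, only 19 overlapped a stretch. The bin at the start of H4c3, with 0 of 43 reads methylated, lay more than 5000 bp from any stretch. The levels outside stretches thus include low promoters, and their share in the gap was not tested.

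The histone gene starts themselves were nearly free of methylation in every family. All 34 histone windows of the wider rule were under 20% methylated, and 21 had no methylated read. Pooled over 312 distinct CpGs, 19 of 1122 reads were methylated, 1.69% (1.09 to 2.63). By the strict rule all 17 windows were low, beside 89.4% of the 529 windows placed by the same rule elsewhere on chromosome 13. Those 529 include 1 histone gene outside the blocks, H2ac1, which was not low (the share is 89.6% of 528 without it). The background depends on CpG number. Of windows with 8 to 14 CpGs, 7 of 7 histone windows were low, beside 66.9% elsewhere, and of windows with 15 to 22 CpGs 10 of 10 were low, beside 97.6%. No histone window of the strict rule had 23 or more CpGs, a class in which 99.2% were low elsewhere. The count of low histone windows is thus near the background for the CpG-richer windows, and 7 windows are few for the others. Head-to-head H2A and H2B windows overlap and share CpGs, so they are not separate observations, and CpGs were counted once in the pooled values.

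The H3 genes had no methylated read at all, 0 of 200 reads over 61 CpGs in 6 windows (upper limit 1.88%). H3c6 (68 reads) and H3c8 (80 reads) carried most of them. The 8 H4 windows had 5 methylated of 328 reads (1.52%, 0.653 to 3.52), with H4c11 at 1 of 102 reads, H4c12 at 3 of 80 and H4c1, at the promoter with the most CpGs of the family (27), at 0 of 59. The 5 H1 windows had 4 of 206 (1.94%, 0.758 to 4.89). H1f4 had 0 of 89 reads and H1f1 0 of 56, whereas H1f5 had 3 of 34 and H1f3 1 of 13. The 8 H2B windows had 9 of 322 (2.80%, 1.48 to 5.22) and the 7 H2A windows 9 of 262 (3.44%, 1.82 to 6.40). The intervals of the 5 families overlap.

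The highest levels among histone windows were those of 1 divergent pair at the edge of the first block. H2bc13 had 5 of 40 reads methylated, 12.5% (5.46 to 26.1), and H2ac13, which shares most of that window, had 5 of 45, 11.1% (4.84 to 23.5). H1f5 followed at 8.82%, H1f3 at 7.69% on 13 reads, and the pair H2bc12 and H2ac12 at 7.41% on the same 27 reads. All of these intervals reach below 6%, so at this depth the order among them was not detectable.

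**Figure D4:**
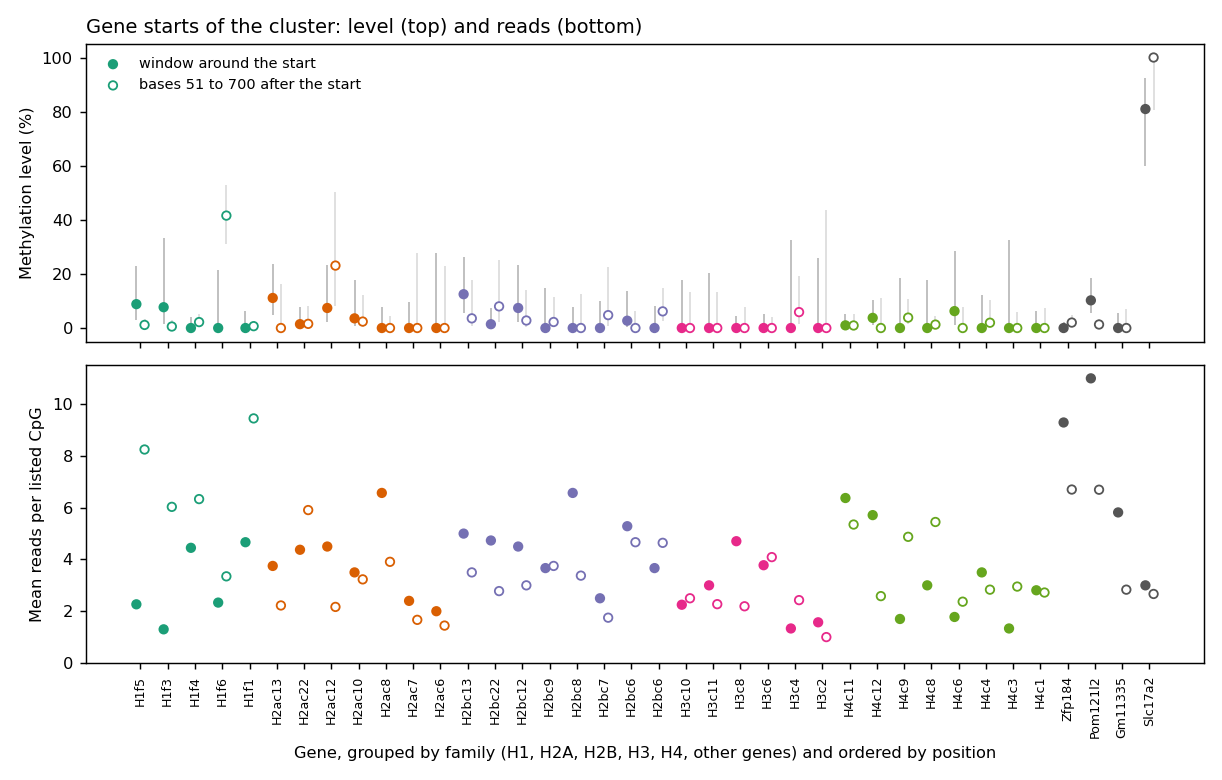
Methylation level in percent with Wilson intervals (top) and mean reads per listed CpG (bottom) for each placed gene start of the cluster, coloured by family. Filled points are the window from 250 bases before to 50 after the start, and open points are bases 51 to 700 after it. All histone windows are under 20%, while the open point of H1f6 stands at 41.6% and both points of Slc17a2 are above 80%.

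H1f6 differed from the other histone genes downstream of its start. Its window had no methylated read among 14, at 6 of its 10 CpGs, which allows up to 21.5% by the Wilson interval. It was placed by the wider rule only, and another place on the chromosome matched 7 CpGs, with others off the pattern. In bases 51 to 700 after the start, 32 of 77 reads over 23 CpGs were methylated, 41.6% (31.2 to 52.7). In that span 32 of the 34 histone windows were under 20%, with a median of 0.81%. The share of such spans under 20% at other gene starts of chromosome 13 was not counted. H1f6 is thus set against the histone genes of the cluster only. The other one above 20% was H2ac12, with 3 of 13 reads methylated (23.1%, 8.18 to 50.3). In steps of 200 bases, H1f6 had 0 of 8 reads methylated just before the start, 5 of 18 in the first 200 bases after it, 19 of 30 in bases 200 to 400, 8 of 25 in bases 400 to 600 and 0 of 6 in bases 600 to 800. The highest level, 63.3%, was thus that of bases 200 to 400. Over the same 5 steps, the 4 other H1 genes had at most 3 methylated reads in any step, and none was above 16.7% (1 of 6 reads, H1f1). These spans hold few reads, so neighbouring CpGs of H1f6 can rest on the same molecules. H2ac1, another testis-specific histone gene, lies outside the blocks. Its window at chr13:24026056-24026355 had 31 of 62 reads methylated at 8 of 8 CpGs, 50% (37.9 to 62.1), with 7.75 reads per CpG, so unlike the start of H1f6 it was not low. H2bc1, the testis-specific H2B gene, was not placed.

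The 4 placed somatic H1 genes each had a step of 200 bases after the start with more reads than the 200 bases before it. The steps were chosen after seeing the data, and any of 4 was set against 1, so such a step is easily found. H1f6 had such a step too, with 3.75 reads per listed CpG in bases 200 to 400 against 2.0 before the start. How many other genes have such a step was not counted. H1f3 had 1.30 reads per listed CpG in the 200 bases before its start and 10.7 in bases 400 to 600. H1f5 had 1.38 and 10.8 in the same steps. H1f4 had 4.59 before the start, 4.82 in the first 200 bases after it, 2.0 in bases 200 to 400, 11.2 in bases 400 to 600 and 3.2 in bases 600 to 800, so its reads were high in 1 step only. H1f1 had 4.10 before the start, 10.1 in the first 200 bases after it and 10.9 in bases 200 to 400. H1f2 was not placed, and H1f6 had between 2.0 and 3.75 in all 5 steps. The stretch with the highest mean reads among those of 15 or more listed CpGs, chr13:23647196-23647916 with 7.84 reads (SD 3.54 over CpGs), lies downstream of the start of H1f3. Of the stretches elsewhere on chromosome 13 with 15 or more listed CpGs, 96.3% were at or below that mean. Only 1 of the 196 reads of this stretch downstream of H1f3 was methylated.

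**Figure D5:**
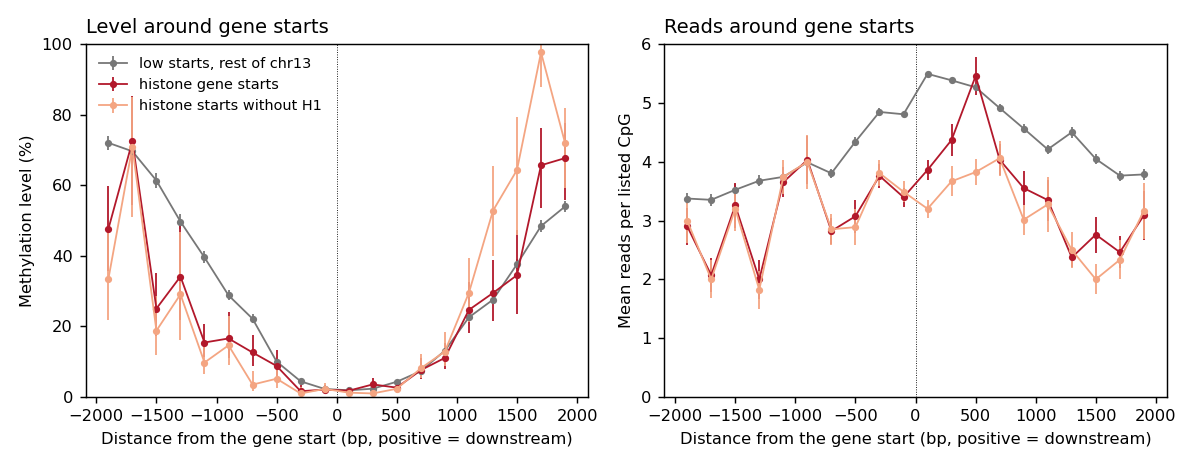
Methylation level in percent with Wilson intervals (left) and mean reads per listed CpG with standard errors over CpGs (right) in steps of 200 bp around the 34 placed histone gene starts, the 29 of them that are not H1 genes and 473 low-methylated starts of the rest of chromosome 13, each CpG counted at its nearest start. The histone mean of 5.46 reads at 400 to 600 bp after the start is 3.83 without the 5 H1 starts (pale line), below the other starts at that distance. Histone starts are those of the wider rule and the 473 those of the strict rule, and CpG number is not matched.

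Averaged over the 34 histone starts, reads per listed CpG were 3.40 in the 200 bp before the start, 3.86 in the 200 bp after it and 5.46 at 400 to 600 bp. Around 473 low-methylated starts elsewhere on chromosome 13 the corresponding means were 4.81, 5.50 and 5.27, higher at the first 2 of these distances. Those 473 starts were placed by the strict rule, which asks for more listed CpGs than the wider rule of the 34. CpG number was not matched either. The 200 bp before the start held 216 listed CpGs at the 34 starts and 6179 at the 473. The histone mean at 400 to 600 bp rested on the H1 genes, with 9.05 at the 5 H1 starts and 3.83 at the 29 others. Without H1 the histone means were 3.49 before the start, 3.2 after it and 4.06 at 600 to 800 bp, with no clear maximum. Gene by gene, 15 of the 34 windows had more reads per CpG in bases 51 to 700 after the start than in the window itself, with medians of 3.12 and 3.58. The level was 2.04% and 1.73% on either side of the histone starts, and 12.6% at 600 to 800 bp before and 7.55% at 600 to 800 bp after them. Histone windows of the strict rule had a median of 3.75 reads per listed CpG (range 1.30 to 6.38), and the windows elsewhere had 4.50 (middle 50% from 3.50 to 5.87), so the ranges overlap widely. With 8 to 14 CpGs the medians were 3.50 in histone windows and 4.0 elsewhere, and the means over all their CpGs were 3.08 and 4.28. With 15 to 22 CpGs the medians were 4.41 and 4.29, and the means 4.27 and 4.75. Of the histone windows, the pair H2bc8 and H2ac8 had the most reads, 6.57 on 7 shared CpGs, and H1f3 at 1.30, H3c4 at 1.33 and H4c3 at 1.33 had the fewest.

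The placed neighbours that are not histone genes behaved differently from one another. Zfp184, a zinc finger gene, had 0 of 158 reads methylated and 9.29 reads per CpG. Pom121l2, named for its likeness to a nuclear pore gene, had 9 of 88 methylated (10.2%, 5.47 to 18.3) and 11 reads per CpG, the most of all placed windows. Gm11335, which overlaps the window of H4c8, had 0 of 64. Slc17a2, of the sodium phosphate transporter family, had 17 of 21 reads methylated (81.0%, 60 to 92.3) in its window and 16 of 16 in bases 51 to 700 after the start. With 7 CpGs in its 300 bases it had as many as the histone pairs H2bc8 with H2ac8 and H2bc12 with H2ac12, at 0% and 7.41%.

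A group of 6 histone genes of the first block could not be seen in this library as separate genes. RefSeq orders H2bc23, H2ac23, H4c17, H4c18, H2ac24 and H4bc24 between H2bc22 and Zfp184, with 12 to 18 CpGs in each promoter, and none was placed. The promoters of H2bc23 and H4bc24 are identical over all 300 bases, so the H2bc23 sequence given above is also that of H4bc24. These 6 were the only histone promoters of the cluster sharing a run of over 100 bases with another one, while the longest run in any placed promoter was 72 bases, between H4c11 and H4c12. On the mm9 positions the same interval has 2 spans of over 14000 bp with no listed CpG. These are 15283 bp from 21888813 to 21904096 and 14820 bp from 21924066 to 21938886. Elsewhere on chromosome 13 there were 16 such spans over 14000 bp. How reads matching several places were treated is not given in the sources used here, so the level of these genes is unknown and not 0. Whether the empty spans are those repeats was not tested.

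The letters of known histone promoter elements were counted on both strands of the 300 bases, each motif by itself where motifs overlap. CCAAT was found in 39 of 47 histone promoters (83.0%), beside 37.4% of all 32851 promoters of the table. It was present in every H1, H2A, H2B and H3 promoter and in 3 of 11 H4 promoters. Head-to-head H2A and H2B promoters share bases, and those of H2bc23 and H4bc24 are identical. A copy of any motif can thus be counted for both genes of such a pair. TATAAA was found in 29 of 47 (61.7%), beside 13.6%. In H1f4 it starts 27 bases before the start. ATTTGCAT, the octamer known from H2B promoters, was found in 4 of 12 H2B and 4 of 11 H2A promoters and in no H1, H3 or H4 promoter, beside 1.74% of all promoters. AAACACA, the element of H1 promoters, was found in 5 of 6 H1 promoters, beside 7.18%. It starts 115 bases before the start in H1f4 and 114 bases before it in H1f6, which is visible in the sequences above, so the unmethylated window of the testis-specific gene and that of the somatic gene carry it at nearly the same place. Histone promoters had a median of 11 CpGs in 300 bases, against 7 over all promoters.

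Reads per listed CpG, the measure of recovered nucleosomal DNA in this library, were close to those elsewhere at equal CpG number. The mean was 3.54 (SD 2.61 over CpGs) in the cluster, and 3.49 in the rest of chromosome 13 weighted to the same local CpG numbers, a ratio of 1.015 (exact Poisson interval 1.001 to 1.029). The ratio was 1.069 in the first block (1.049 to 1.089) and 0.952 in the second (0.932 to 0.973). At 250 bp on each side in place of 100, the ratio of the whole cluster was 0.995, on the other side of 1. Only CpGs with at least 1 read are listed, so these are means over covered CpGs.

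Within DNA of low methylation the blocks were on opposite sides of the rest of the chromosome. CpGs whose surroundings within 100 bp were under 20% methylated from at least 10 reads made up 66% of the CpGs of the cluster with a state, and 18.3% elsewhere. Their reads per CpG stood at 0.964 of those of low CpGs elsewhere at equal CpG number (0.945 to 0.983), and at 1.0004 of those when all other autosomal CpGs were taken for comparison. The ratio was 1.043 in the first block (1.016 to 1.071) and 0.867 in the second (0.840 to 0.894). Against the first block directly, low CpGs of the second had 0.836 of the reads (0.809 to 0.862). Highly methylated CpGs had ratios of 1.003 and 0.999 in the 2 blocks. All these ratios compare reads among CpGs already chosen for at least 10 reads around them. This left out 40.6% of the CpGs of the cluster and 54.9% of those in the rest of the chromosome. Its effect on the ratios was not tested. The low ratio of the second block was between 0.848 and 0.899 under the 5 other settings tried. The spread along the chromosome was wider than these intervals. Over 175 windows of 300000 bp with 100 or more low CpGs, the ratio had an SD of 0.135 and 30 windows were at or below the second block, so neither block stood outside that spread. The low CpGs of the second block were also the less methylated, 1.59% (1.24 to 2.03) against 3.23% (2.80 to 3.72) in the first.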

How the data were processed

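The deposited table gives, per the file headers, the chromosome, the start and the raw counts of all reads and of methylated reads of each CpG. Per the submitters' processing notes, Bowtie and mm9 were used; the rest, the conversion rate included, is not given in the sources used here. Positions may be shifted by 1 bp, as the table does not say whether they count from 0 or 1. CpGs of up to 19 reads were pooled. Levels have 95% Wilson intervals, read ratios exact Poisson and bin shares exact binomial intervals. The rest of chromosome 13 was weighted to the cluster by local CpG number, with 25 or more as 1 class. Promoters, gene order and sequences are from RefSeq (GRCm38.p6), and no coordinates were converted. Named are the stretches with the most CpGs (5 per block), the longest, and those highest and lowest in reads, the 5 high bins with the most CpGs, the promoters with extreme levels or reads, testis variants and neighbours; H1 genes in steps, profiles without H1 and H2ac1 were added after seeing the data. Members and lists were chosen with earlier results of these data known. Weighting, stretches and placing at the strict limits were tested on simulated data, and the wider placing was not. The simulated stretches had more reads per CpG than this library. That test thus cannot show how many stretches are missed at the depth of these data. Alternatives varied the read limits, windows, thresholds, bins and placing. Python 3.11.15, numpy 2.4.6, pandas 2.3.3, scipy 1.17.1 and matplotlib 3.10.9 were used.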

Additional observations from a re-analysis of the deposited data

How the results depend on the processing

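No paired analysis was possible because a single library was used. Of 38 alternatives, 27 kept their value within the counting interval, or a count within 1.5 times, 9 moved it and 2 turned its side of 1. The cluster's level was 33.6% as the mean of CpGs with 5 or more reads and 16.2% with 10 or more. The difference at equal CpG number was -24.8 points with 250 bp on each side and -28.7 points against all other autosomal CpGs. The coverage ratio was 0.995 with 250 bp on each side. Against all other autosomal CpGs the ratio in low-methylated DNA was 1.0004, and it was 1.083 in the first block and 0.899 in the second. Bins of 1000 bp gave 113 low bins of 434, and requiring 10 or more reads per CpG gave 12 stretches, with the contrast narrowed to 1.85 per 100 kb against 0.426 outside. The wider placing gave 37 low windows of 38. The causes of these shifts were not tested, except that stricter read limits and larger bins leave fewer units. The settings of the separate blocks and the wider placing were chosen after seeing the data. A promoter window of 8 reads with none methylated allows up to 32.4%, and genes whose CpGs have no read are not measured.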

Other observations

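The 3 stretches with the fewest reads among those of 15 or more listed CpGs were chr13:23609431-23610294 (2.54 reads per CpG, 1 of 71 methylated), chr13:22134830-22135481 (2.80, 0 of 42) and chr13:22120792-22121298 (3.19, 4 of 86). Of the stretches elsewhere on chromosome 13 with 15 or more listed CpGs, 0.115%, 0.574% and 2.30% were at or below these means. Of the 10 CpGs of the cluster above 19 reads, all lay in the first block, with at most 26 reads. Bins without a listed CpG numbered 137 of 700 in the first block and 78 of 600 in the second.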
